A study of Mikania micrantha with 15 samples.

Results

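The genes described here are 181 of the 41487 gene IDs of Mikania micrantha, a perennial climber related to daisies, whose reads came almost entirely from flower. They were chosen by level: at least 20 CPM (a gene's count scaled to a library total of 1000000) in each of 3 flower libraries, and under 1 CPM in each of 11 libraries of leaf, root, shoot apex and stem. Leaf replicate 1 was left out of that choice because it holds traces of flower transcripts. The levels in the 14 libraries that made the choice are given below as a description and carry no test. All 181 passed the filter on low counts, each through its level in flower.

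The study asked how gene expression differs among the organs of this vine and sequenced total RNA of stem, root, leaf, shoot apex and flower, with 3 libraries per organ. All plants were wild type, propagated as cuttings whose roots had grown to about 4 to 5 cm before transfer to Hoagland medium, a defined mineral solution, in which they stayed for 60 days at 24 °C under 16 h of light and 8 h of dark. The labels give neither the stage of the flowers nor whether replicates came from separate plants, so the spread between libraries may be partly technical. Library totals ran from 3777165 to 12817396 counts.

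A flower of the daisy family is a small floret packed with others into a head, and it holds petals, stamens with pollen, and a pistil with its ovule. In plants the stamen is a known source of transcripts found in no vegetative organ, because pollen and the tapetum that feeds it build walls and stores that other tissues do not make. The table does not pair its IDs with gene names, so none of the 181 could be assigned to petal, stamen or pistil, the lists of floral organ identity, tapetum, pollen and pistil genes could not be counted, and the organ labels could not be checked against named markers. No sequence is shown for the same reason. Flower libraries are bulk tissue, in which fewer cells of a type and less RNA per cell cannot be told apart.

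The 181 genes took 1.69, 1.93 and 1.92% of all counts in flower replicates 1, 2 and 3, a mean of 1.85 ± 0.137% (SD, n = 3). Their summed level was 16874, 19317 and 19176 CPM in these libraries. In the 11 other libraries of the choice it lay between 4.57 CPM, in root replicate 3, and 16.5 CPM, in shoot apex replicate 3. Leaf replicate 1 stood between these ranges at 754 CPM.

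**Figure D1:**
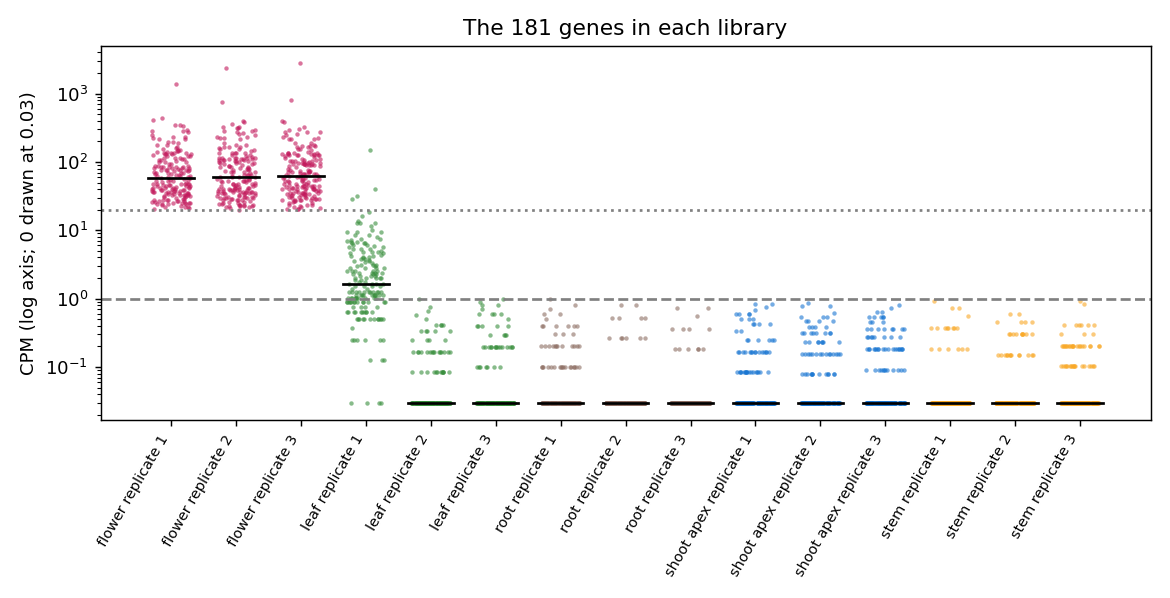
CPM of each of the 181 genes (points, log axis, with 0 drawn at 0.03) in each of the 15 libraries, with the median as a black line, the 20 CPM limit dotted and the 1 CPM limit dashed. The flower libraries lie above 20 CPM and 11 other libraries below 1 CPM by the choice of genes, while in leaf replicate 1, which was not used, 128 genes reached 1 CPM.

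Mean flower levels ran from 23.3 to 2194 CPM, with a median of 59.9 CPM and quartiles of 35.7 and 108 CPM. Of the 181 genes, 77 were under 50 CPM, 53 reached 100 CPM, 19 reached 200 CPM and 8 reached 300 CPM. Gene lengths were not used here, so the order of these levels also follows transcript length. The gene with the highest level took 11.9% of the summed mean flower CPM of the set and the 10 highest took 29.3%.

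E3N88_15267 had the highest level. It was at 1375, 2400 and 2806 CPM in flower replicates 1, 2 and 3, which made it the ID with rank 4 by mean CPM among all IDs in flower. Flower replicate 1 was the lowest of the 3. Its 68357 flower reads stood against 1 read in root, 6 in shoot apex, 0 in stem and 3 in leaf replicates 2 and 3. The flower level was at least 15956-fold that of stem, with stem set to a floor of 3 counts over its libraries. The ratio of flower to shoot apex was 12826, with a 95% exact (Clopper-Pearson) interval of 5892 to 34951. Bounds and intervals here cover counting error only.

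E3N88_15268, the next ID, had the second highest level. It was at 444, 753 and 792 CPM in flower replicates 1, 2 and 3 and ranked 20 among all IDs. As with its neighbour, flower replicate 1 was lowest. It had 20681 reads in flower, none in shoot apex or stem, 3 in root and 2 in leaf replicates 2 and 3. Its flower level was at least 7901-fold that of shoot apex and at least 4824-fold that of stem.

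No read in any of the 11 libraries was found for 53 of the 181 genes, and all 53 had reads in leaf replicate 1. Among the 53, E3N88_36061 had the highest flower level, with 292, 357 and 291 CPM in replicates 1, 2 and 3. E3N88_17002 followed with 215, 232 and 170 CPM. These genes were at 18.4 and 4.02 CPM in leaf replicate 1. A count of 0 in 1 library allows up to 0.234 CPM in the deepest library, shoot apex replicate 2, and up to 0.794 CPM in the shallowest, root replicate 2.

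The genes nearest the limits had these values. E3N88_20048 entered with 20.1 CPM in flower replicate 2 and E3N88_30293 with 20.2 CPM in flower replicate 1. E3N88_36234, with 19.8 CPM in flower replicate 1, and E3N88_33348, with 19.8 CPM in flower replicate 3, fell just short. At the other limit, E3N88_17792 entered with 0.9999 CPM in leaf replicate 2 and E3N88_32643 with 0.998 CPM in root replicate 1. E3N88_17573 and E3N88_02052 were left out at 1.03 CPM each in stem replicate 3.

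The edgeR quasi-likelihood test, with a call at a Benjamini-Hochberg adjusted p under 0.05 and at least 2-fold, called all 181 genes higher in flower than in each other organ. Of all 27055 genes tested, 20.2% were called higher in flower than in leaf, 27% than in root, 17.5% than in shoot apex and 24.9% than in stem. The choice of genes used these contrasts, so their calls support nothing further. The one part of them not limited by the choice is leaf replicate 1, left out because it holds traces of flower transcripts. With it in the fit the median log2 difference of flower over leaf was 6.59, against 0.09 over all genes tested. The choice held the other libraries of this contrast to its limits, so this gap supports nothing either. Without leaf replicate 1 the median was 11.31, which depends on the fit where leaf held few or no reads and is not a measured fold. DESeq2 called 93 of the 181 between flower and leaf with all libraries, and 175 without leaf replicate 1. No share over all genes was taken for DESeq2, so these counts have no background beside them. The adjusted p of DESeq2 was not given for 11 of the genes with all libraries.

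Levels of these genes varied more between flower libraries than those of other genes read in flower. The median coefficient of variation (CV, the SD over the mean) across the 3 flower libraries was 15.5%, with quartiles of 10.7 and 21.2%. For the 11428 other IDs with at least 20 CPM in each flower library the median was 9.81%. The difference held at matched levels. The median CV was 17.4% against 11.3% under 50 CPM, 16.2% against 9.13% from 50 to 100 CPM, and 12.96% against 8.05% at 100 CPM and more. Other flower-dominant genes had a like spread. A set of 102 of the 11428 other IDs had a median CV of 15.7%. Their lowest flower library was at least 10 times their highest value in the 11 libraries. These figures are descriptions, with no test.

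The spread ran in both directions between the flower libraries. Flower replicate 3 was at least 1.5 times flower replicate 1 for 19 of the 181 genes (10.5%), and flower replicate 1 at least 1.5 times replicate 3 for 14 (7.73%). Among the 11428 other IDs the shares were 0.788% and 0.726%. With the trimmed mean of M-values (TMM) as scaling the counts among the 181 became 34 and 6, so the balance between the directions depends on the scaling. The ratio of replicate 3 to replicate 1 ran from 0.533 to 2.11. It lay within 1.2-fold for 69 genes, 38.1% of them, against 78.4% of the other IDs.

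**Figure D2:**
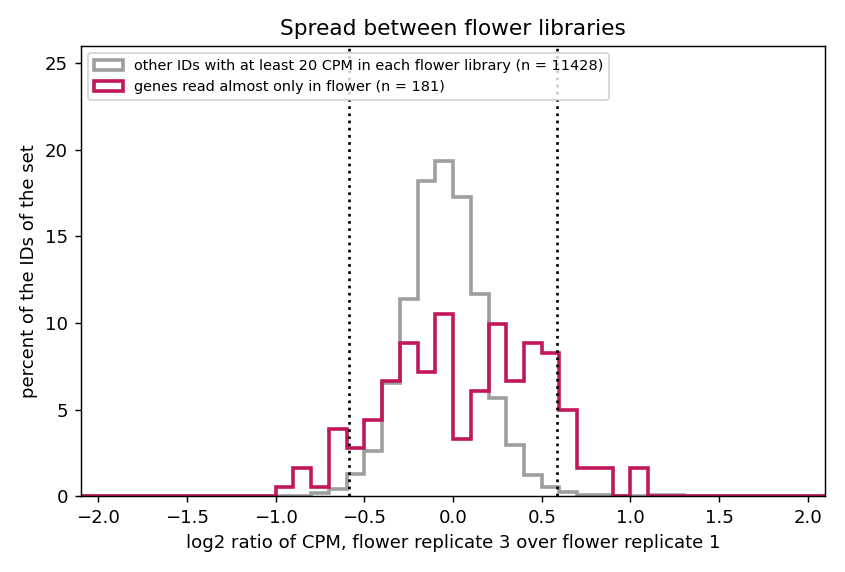
Distribution of the log2 ratio of CPM in flower replicate 3 over flower replicate 1, as a percent of the 181 genes (red) and of the 11428 other IDs with at least 20 CPM in each flower library (grey), with 1.5-fold marked by dotted lines. The red distribution is wider, with 19 genes at or beyond 1.5-fold on the right and 14 on the left with plain library totals.

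E3N88_36136 had the widest spread, with 24.98, 27.2 and 52.6 CPM in flower replicates 1, 2 and 3, a CV of 44.0%. It stood highest in replicate 3. E3N88_17309 followed at 41.5, 50.8 and 84.6 CPM, a CV of 38.5%, and was also highest in replicate 3. E3N88_31487 had the largest excess in flower replicate 1, with 44.0 CPM there against 27.3 and 23.4 in replicates 2 and 3. E3N88_23236 had the largest excess in flower replicate 2, at 264 CPM against 176 in replicate 1 and 133 in replicate 3. The libraries therefore did not share a single order across the 181 genes.

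Other genes hardly moved between flower libraries. E3N88_37614 was at 123, 123 and 124 CPM, a CV of 0.423%. E3N88_05096 was at 331, 329 and 327 CPM, a CV of 0.643%. A CV under 5% was found for 14 of the 181 genes and one of at least 30% for 11.

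Leaf replicate 1 was left out of the choice because it holds traces of flower transcripts, so its levels are given as a description. It held reads for 177 of the 181 genes. At least 1 CPM was reached there by 128 genes, 70.7%. Leaf replicates 2 and 3 were under 1 CPM for all of them by the choice. Among all 18170 IDs under 1 CPM in leaf replicates 2 and 3, the 181 genes included, 3.38% reached 1 CPM in leaf replicate 1. Among the 14633 of those that were also under 1 CPM in each flower library, 1.03% did. No share was taken for other IDs with flower levels like those of the 181 genes. The set of 181 took 5994 reads in leaf replicate 1, against 136 in leaf replicate 2 and 140 in leaf replicate 3. With 1 library of this kind there is no test.

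The level in leaf replicate 1 was a median of 2.88% of the flower mean, with quartiles of 1.87 and 3.99%. Across the 177 genes with a read, log2 levels in leaf replicate 1 and in flower replicates 1, 2 and 3 had Pearson's r of 0.845, 0.866 and 0.876. These are correlations across genes that share libraries, given as a description. Between pairs of flower libraries r was 0.927 to 0.961 across the 181 genes. The percentage was a little higher for genes with high flower levels, with a median of 2.41% under 50 CPM (77 genes), 2.71% from 50 to 100 CPM (51 genes) and 3.52% at 100 CPM and more (53 genes).

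**Figure D3:**
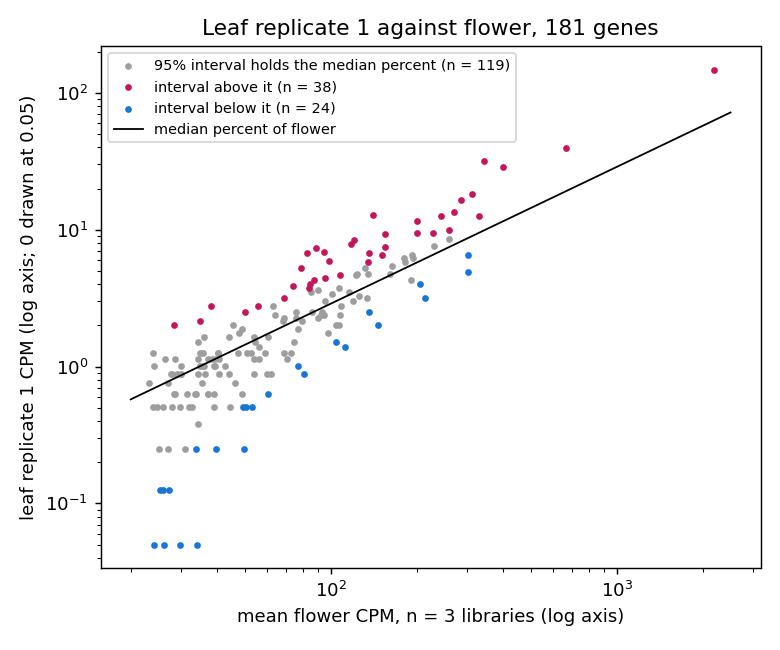
CPM in leaf replicate 1 (log axis, with 0 drawn at 0.05) against the mean flower CPM (log axis) for the 181 genes, with a line at the median of 2.88% of flower. For 119 genes the 95% exact Poisson interval of the leaf reads held that percentage (grey), for 38 it lay above (red) and for 24 below (blue).

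The percentage differed between genes, and how far beyond error was not tested. The interval from counting the leaf reads (95%, exact Poisson) lay above the median percentage for 38 genes, below it for 24 and around it for 119. These intervals cover the counting of leaf reads only. They leave out the spread between flower libraries, whose median CV was 15.5%, and the spread between samples of leaf. E3N88_27850 had the highest percentage. It was at 250, 389 and 392 CPM in the flower libraries and 31.7 CPM in leaf replicate 1, which is 9.22% with an interval of 8.12 to 10.4%. E3N88_30265 followed at 146, 134 and 141 CPM in flower and 12.7 CPM in leaf replicate 1, or 9.05% with an interval of 7.37 to 11.002%. E3N88_15267 was at 148 CPM there, or 6.74% with an interval of 6.36 to 7.13%, and held 19.6% of the reads of the set in this library.

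At the other end, E3N88_10084, E3N88_23261, E3N88_32204 and E3N88_36098 had no read in leaf replicate 1, at flower means of 26.1, 24.1, 34.1 and 29.7 CPM. The upper ends of their intervals were 1.78, 1.92, 1.36 and 1.56% of flower. All lay under the median percentage. E3N88_10530 and E3N88_09681 had 1 read each, or 0.463 and 0.483% of flower.

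The percentage in leaf replicate 1 was also taken for genes that differed between flower libraries. The median was 2.88% for the 19 genes higher in flower replicate 3, 2.34% for the 14 higher in flower replicate 1 and 2.94% for the other 148. The quartiles of these groups overlapped, at 1.87 to 4.10%, 1.86 to 3.02% and 1.88 to 4.18%. Their median flower levels were unlike, at 56.4, 37.9 and 63.3 CPM in the same order, and no difference was tested.

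Outside flower and leaf replicate 1, the choice itself kept the reads of the 181 genes few. The values in this and the next paragraphs describe what lay under its limit. The 11 libraries together held 1200 reads of them, with a median of 3 per gene and 51 at most. The 20 genes with the most held 43.5% of these reads. Of the 128 genes with a read, 43 had 1 to 3, 43 had 4 to 10 and 42 had over 10. The 20 genes with the highest flower levels had 108 of the reads and the 20 with the lowest had 153.

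With plain library totals, shoot apex held the most of these reads in CPM. The summed level of the 181 genes was 14.9, 15.8 and 16.5 CPM in shoot apex replicates 1, 2 and 3, above each of the other 8 libraries. It was 11.3 and 13.9 CPM in leaf replicates 2 and 3, and 6.98, 7.96 and 11.3 CPM in stem replicates 1, 2 and 3. In root it was 11.6, 5.29 and 4.57 CPM, so root replicate 1 lay above stem while root replicates 2 and 3 lay below. The TMM factors were 1.18, 1.18 and 1.15 in shoot apex replicates 1, 2 and 3. They were 0.975 in leaf replicate 3 and 0.904 in root replicate 1. Division by these factors does not leave every shoot apex library above leaf replicate 3 and root replicate 1. The ranking of libraries therefore depends on the scaling. If each library held the smallest total, 33.1, 36.0 and 38.2 genes would be expected to have a read in the shoot apex libraries and 10.7 to 29.6 in the other 8. As sequenced, 56 to 59 genes had a read in shoot apex. A read in every library of the organ was found for 30 genes in shoot apex, 21 in leaf replicates 2 and 3, 11 in stem and 4 in root. Leaf had 2 libraries to meet here and the other organs 3, so these counts are not like for like. Depth moved with the as-sequenced counts, and its part in them was removed only in the figures at the smallest total.

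**Figure D4:**
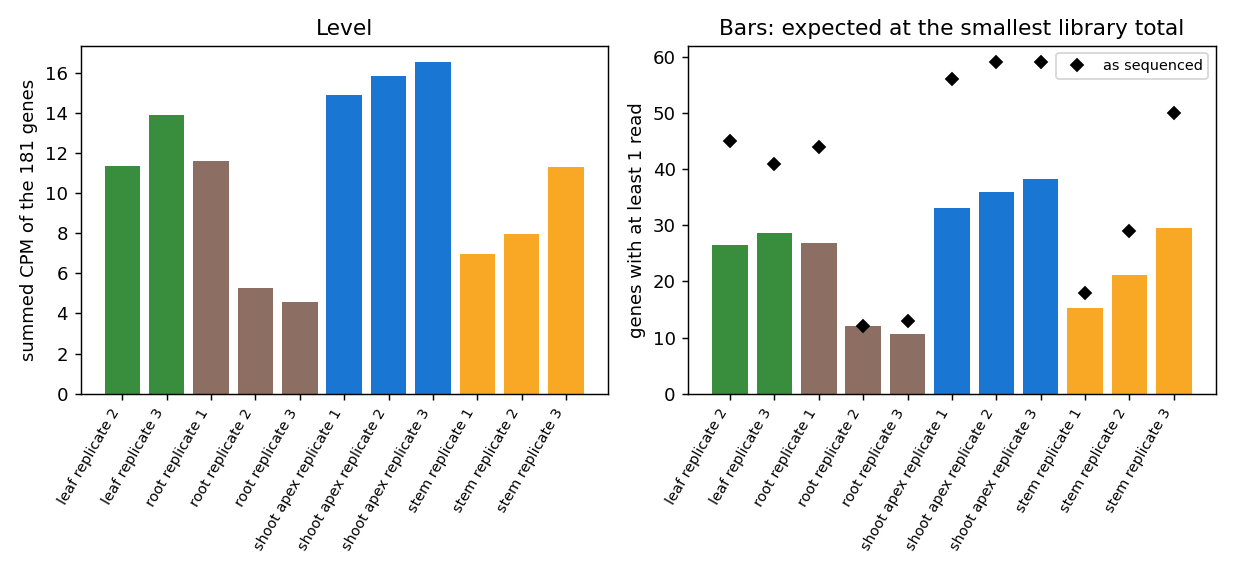
Summed CPM of the 181 genes in each of the 11 libraries other than flower and leaf replicate 1 (left), and the number of the genes with at least 1 read (right), with the totals as sequenced (diamonds) and at the smallest library total (bars). With plain library totals the 3 shoot apex libraries are highest in both, at 14.9 to 16.5 CPM and 33.1 to 38.2 genes.

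The limit of 1 CPM left too few reads for tests between the other organs. The edgeR quasi-likelihood fit to all 15 libraries called 10 of the 181 genes between root and shoot apex, 1 between root and stem and 8 between shoot apex and stem. It called 18 between leaf and root, 63 between leaf and shoot apex and 24 between leaf and stem. In either direction, 53.7, 28.6, 46.1, 43.3, 35.5 and 35.5% of all 27055 genes tested were called in these 6 pairs, in the same order. The 181 genes entered that fit through their level in flower, and the values compared were held under the limit by the choice, apart from leaf replicate 1. In fits to the 6 libraries of a pair, 1 of the genes passed the filter on low counts for leaf and shoot apex and none in the other 5 pairs. The calls are therefore not read as differences between these organs. The genes below are given as examples with their reads only. They had the smallest adjusted p-values in each direction among the called genes of the fit to all 15 libraries. For pairs with leaf they came from the fit without leaf replicate 1.

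E3N88_25773, at 68.0, 41.9 and 42.5 CPM in flower, was at 0.504, 0.624 and 0.816 CPM in the 3 shoot apex libraries and had no read in root or stem. A count of 0 allows up to 0.794 and 0.549 CPM in root replicates 2 and 3, and 0.551 CPM in stem replicate 1. On their own, those shallow libraries could not be ordered against all 3 shoot apex libraries. Over all libraries of the organ together, the floor of 3 counts was 0.156 CPM in root and 0.137 CPM in stem. Both lay under each shoot apex value, and no order was tested.

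E3N88_29926 had its residual reads in root. It was steady in flower, at 38.7, 38.3 and 40.4 CPM, and was at 0.799, 0.529 and 0.366 CPM in root replicates 1, 2 and 3, from 8, 2 and 2 reads. Shoot apex and leaf replicates 2 and 3 had no read and stem had 1.

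E3N88_20048, the gene with the lowest flower minimum, was at 0.918, 0.150 and 0.823 CPM in stem and had 2 reads in shoot apex. Stem replicate 2 held 1 read and lay within the range of shoot apex. Residual reads could also sit in 1 library. E3N88_32204 had 6 reads in root replicate 1, 0 in root replicates 2 and 3, and 0 in shoot apex.

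E3N88_17792 had 12 and 9 reads in leaf replicates 2 and 3, 5, 6 and 7 in the shoot apex libraries and none in root. E3N88_19180, at 52.8 ± 8.15 CPM in flower (SD, n = 3), had 2, 4 and 9 reads in stem replicates 1, 2 and 3 and none in leaf replicates 2 and 3.

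The further examples had few reads each, and organs not named for a gene could hold reads too. E3N88_10494 had 4 and 10 reads in leaf replicates 2 and 3 and none in root, shoot apex or stem. E3N88_19834 had 4, 1 and 3 reads in root and 9, 6 and 3 in shoot apex, with none in stem or in leaf replicates 2 and 3. E3N88_17328 had 5 and 7 reads in leaf replicates 2 and 3 and none in shoot apex, while E3N88_17380 had 5, 6 and 5 in shoot apex and none in those leaf libraries. E3N88_05894 had 2 reads in each stem library and none in leaf replicates 2 and 3. Most of its reads outside flower and leaf replicate 1 were in shoot apex, at 4, 3 and 7, and root had 3. E3N88_12014 had 2, 2 and 4 reads in shoot apex and none in stem, with 8 in leaf replicates 2 and 3 and 2 in root. E3N88_39282 had 1, 2 and 2 reads in stem and none in shoot apex.

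The 181 IDs were spread over the numbering of the table. The lowest was number 565 and the highest 41445, and each of 8 equal parts of the range held 17 to 32 of them. Most stood alone. A member at the next number was found for 18 genes, which formed 9 pairs, and no run was longer than 2. Of the 341 IDs directly beside these genes and not among them, 119, or 34.9%, had at least 20 CPM in each flower library, against 28.0% of all IDs. Flower-dominant expression was found for 3 of the 341, or 0.880%, against 0.247% of all IDs outside the set. It meant at least 20 CPM in each flower library, with the lowest at least 10 times the highest value in the 11 libraries. Between 1 and 20 CPM in flower with under 1 CPM elsewhere was found for 11, or 3.23%, against 1.67%. No test was made of these shares. Consecutive numbers were not matched to coordinates, and where neighbours are near-identical copies their counts would be uncertain.

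Within the pairs the flower levels were alike in some and unlike in others. The highest pair was E3N88_15267 with E3N88_15268, at a ratio of 3.10, 3.19 and 3.54 in flower replicates 1, 2 and 3. Both were lowest in flower replicate 1, and they stood at 6.74 and 5.99% of flower in leaf replicate 1. E3N88_30292 and E3N88_30293 differed most, at 193 ± 58.4 and 28.7 ± 7.43 CPM (SD, n = 3), a ratio of 6.74. E3N88_17140 and E3N88_17141 were alike, at 161 ± 13.4 and 123 ± 9.76 CPM, and neither had a read in the 11 libraries. In 6 of the 9 pairs the means were within 2-fold of each other.

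The members of a pair could also vary apart. In 7 of the 9 pairs both genes lay on the same side of equality between flower replicates 3 and 1. E3N88_31103 and E3N88_31104 did not, with ratios of replicate 3 to replicate 1 of 0.909 and 1.54. E3N88_22135 and E3N88_22136 did not either, at 0.802 and 1.08. E3N88_05095 had 21 reads in the 11 libraries, against 2 for its neighbour E3N88_05096, although the flower level of the second was 329 ± 2.12 CPM and that of the first 107 ± 5.43 CPM (SD, n = 3).

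**Figure D5:**
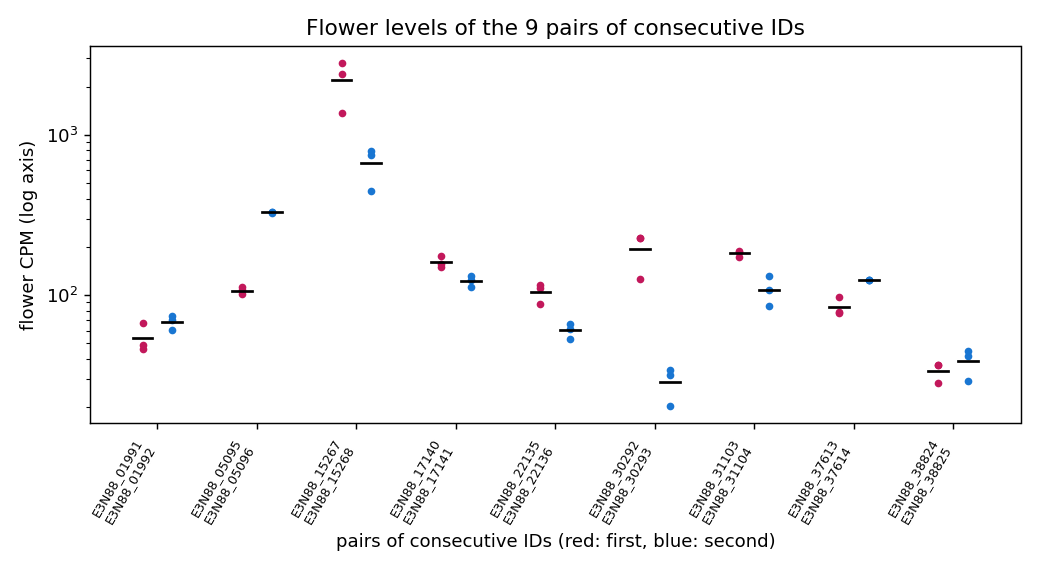
CPM in the 3 flower libraries (points, log axis) and their mean (black line) for the 9 pairs of genes with consecutive IDs, the first ID in red and the second in blue. The means lie within 2-fold in 6 pairs and differ 6.74-fold for E3N88_30292 and E3N88_30293.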

How the data were processed

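A single table of unnormalized read counts was deposited, for 41487 gene IDs in 15 libraries of 5 organs. The submitters' processing notes name HISAT2, a read aligner; for the counting program, genome build, annotation, strand and multiple mapping, the sources used here state nothing, so counts of near-identical or overlapping genes are uncertain. Members were selected on CPM from plain library totals. Counts were fitted with edgeR 4.0.16 in R 4.3.3: filterByExpr on the organs kept 27055 genes, with TMM scaling, 1 term per organ over all 15 libraries and quasi-likelihood F tests, Benjamini-Hochberg adjusted over all genes tested. Alternatives used DESeq2 1.42.0, other scalings and filters, a replicate block, fits per pair and each library left out. The fit was tested on simulated data. Totals of 3777165 to 12817396 counts set the precision; 1 read is worth less in deeper libraries. No replicate pair agreed within sampling noise (chi-square per degree of freedom at least 2.09). The members, lists and tests were chosen with earlier results of these data known. IDs were named by rule: the extremes of each described measure, at most 2 at each end; the 4 IDs with no read in leaf replicate 1, the 2 highest genes among those with no read in the 11 libraries, the further ID pairs and the examples for leaf, from the fit without leaf replicate 1, were named after their values were seen.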

Additional observations from a re-analysis of the deposited data

Results flagged for a closer look

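The summed level of the 181 genes in leaf replicate 1 was 754 CPM. That library was left out of the choice because it holds traces of flower transcripts. The summed level stood above that of leaf replicates 2 and 3, at 11.3 and 13.9 CPM. It was below that of the flower libraries, at 16874 to 19317 CPM. Of the 181 genes, 176 were higher in leaf replicate 1 than in both other leaf libraries. What brought these reads into the library was not tested.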

How the results depend on the processing

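The number of genes chosen was 181. It was 108 with at least 40 CPM in flower, 53 with leaf replicate 1 also held under 1 CPM, and 181 to 192 without any 1 library. The other limits and TMM gave 142 to 265. DESeq2 called 93 of the 181 between flower and leaf, and no share over all genes was taken for it. The other alternatives kept the 4 flower counts within 1.5 times, at 180 to 181 without any 1 library.

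Among the other organs the calls, which are not read as differences, were 18 (leaf and root), 63 (leaf and shoot apex), 24 (leaf and stem), 10 (root and shoot apex), 1 (root and stem) and 8 (shoot apex and stem). In the same order they ranged without any 1 library from 4 to 85, 15 to 134, 4 to 83, 4 to 20, 0 to 7 and 4 to 16. Fits to the 6 libraries of a pair gave 0, 1, 0, 0, 0 and 0, because 0 of the genes passed the filter, or 1 for leaf and shoot apex. Plain totals gave 29 for leaf and root. No filter gave 32 for leaf and root and 37 for leaf and stem. DESeq2 gave 22 for leaf and shoot apex and 3 for root and stem. DESeq2 without leaf replicate 1, added after the data were seen, gave 9, 12, 12, 13, 6 and 14. The 30 correlations of same-numbered deviations ran from -0.201 to 0.223, and 3 exceeded 0.1. Differently numbered libraries were not set beside them, so whether replicate numbers pair the libraries cannot be told. The replicate block gave 33 for leaf and shoot apex, 10 for leaf and stem and 0 for root and stem. Except where stated, the cause was not tested.

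With TMM the median level in leaf replicate 1 was 3.48% of flower and the share of counts in flower 1.65%. Without any 1 flower library they were 2.79 to 2.90% and 1.80 to 1.92%, and the median CV 10.8 to 16.7%. Within 5 ID numbers, 31 genes had another member. Depth limits every statement on genes under 1 CPM.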
